A study of Drosophila melanogaster with 4 samples.

Results

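The genes esg, wor and sna encode the zinc finger repressors Escargot, Worniu and Snail, and they lie beside each other on chromosome arm 2L of Drosophila melanogaster. Their chromatin was examined through the peaks of H3K27me3 and H3K27ac that lie on each gene, within 10 kb of it, or in the intervals between the genes, a stretch of 164 kb (2L:15323866-15488260, build dm6). Of the 75208 peaks in the 4 lists, 135 met that rule. They were 18 of 4317 H3K27me3 peaks in the control, 44 of 18886 in the Cut knockdown, 36 of 26235 H3K27ac peaks in the control and 37 of 25770 in the knockdown. The gene spans are 2L:15333866-15336138 for esg (2.27 kb), 2L:15423297-15425580 for wor (2.28 kb) and 2L:15476593-15478260 for sna (1.67 kb).

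Snail family proteins bind E-box DNA through zinc fingers and recruit co-repressors such as CtBP. In the fly, sna shuts off neuroectodermal genes in the mesoderm of the early embryo, esg acts in imaginal cells, trachea and intestinal stem cells, and all of them act redundantly in neuroblasts, the stem cells of the nervous system, where they sustain inscuteable expression and asymmetric division. H3K27me3 is the histone mark of Polycomb repression and H3K27ac marks active promoters and enhancers. Both modify the same lysine, so 1 histone tail carries only 1 of them at a time.

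The study compared embryos with RNA interference against Cut, a homeodomain transcription factor encoded by ct, with control embryos, and the labels describe the latter no further. Nuclei of both genotypes carried wor-gal4 driving UAS-dsRed, came from embryos collected for 16 h at 25 °C, and were sorted for dsRed. Per the labels, wor-gal4 is active in the nervous system, sorting took 0.5 to 3% of embryonic nuclei, with a purity of at least 50% by microscopy. The gene wor is thus both a member of the trio and the source of the driver, and any wor DNA within the driver cannot be told apart from the native gene in a peak list. There was 1 library for each mark in each genotype, so no difference below has a replicate check, no test was made, and covered lengths are set side by side.

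The lists differ as a whole, and this bears on every value below. On the 6 chromosome arms the H3K27me3 peaks covered 4.68 Mb in control and 19.5 Mb in knockdown nuclei (ratio 4.16), and the H3K27ac peaks 22.2 and 14.8 Mb (ratio 0.667). On 2L alone the ratios were 3.82 and 0.640. Read depth is unknown, and peak number and length grow with depth. The targeted gene ct had H3K27me3 over 2.49 kb in control and 5.36 kb in knockdown nuclei, and peak lists do not measure its transcript. The antibodies to the 2 marks carry the same catalogue number in the labels, and a slip there was neither shown nor set aside. Markers of other cell types carried H3K27ac as well. A peak lay on or within 500 bp of 7 of 8 neuroblast markers in the control and 8 of 8 in the knockdown, 6 and 6 of 6 neuron markers, and 5 and 5 of 5 glia markers. The counts were 6 and 5 of 6 for muscle and mesoderm, 6 and 6 of 6 for epidermis and trachea, and 6 and 5 of 6 for gut and blood, where 80.1% of all protein-coding genes met this rule in control and 76.9% in knockdown nuclei.

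Across the whole stretch, H3K27me3 covered 16.8 kb in control and 60.8 kb in knockdown nuclei, which is 10.2 and 37.0% of its length. H3K27ac covered 31.5 kb in control and 15.6 kb in knockdown nuclei, or 19.2 and 9.50%. The knockdown thus had 3.62 times the H3K27me3 cover and 0.495 times the H3K27ac cover, beside ratios of 3.82 and 0.640 for the whole arm. The number of H3K27ac peaks was nearly equal, at 36 and 37, and their width was not, with medians of 761.5 and 300 bp. The medians on all arms were 625 and 432 bp, so the gap between genotypes was wider here.

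**Figure D1:**
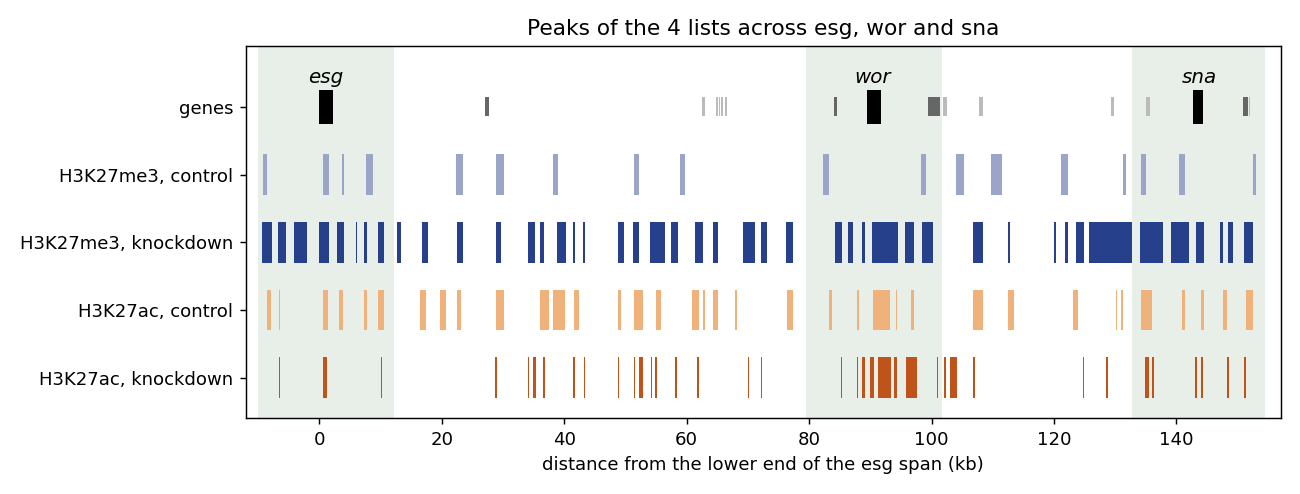
Peaks of the 4 lists drawn to scale along 2L, with distance from the lower end of esg in kb on the x axis. Black boxes are esg, wor and sna, grey boxes are other protein-coding genes (dark) and noncoding RNA genes (light), and green shading marks the gene spans with 10 kb on either side. The 44 knockdown H3K27me3 peaks are spread over the whole stretch, and the 37 knockdown H3K27ac peaks are narrow except around wor.

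On the genes themselves, all 3 members had H3K27me3 peaks in the knockdown, and 1 had a peak in the control. Among all 13922 protein-coding genes, 61.6% had an H3K27me3 peak on their span in the knockdown and 11.0% in the control. The stricter bound of at least 50% of the span was passed only in the knockdown by 3 of the 3 members, against 13.9% of all genes, and in both genotypes by none of the 3, against 1.59%. At a bound of 25% the knockdown-only call held for wor and sna, since esg passed it in both genotypes, and at 75% for sna alone. With a fold of at least 2, or with the H3K27me3 lists at the same covered length, the peaks on wor and sna drop out, and the knockdown peak on esg still covers 1.66 kb. With a -log10 q of at least 2 the peak on sna drops out as well, and the knockdown peak on wor still covers 1.44 kb. H3K27ac lay on or within 500 bp of all 3 members in both genotypes, where 69.7% of all genes met that rule.

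For esg, the H3K27me3 peak of the control covered 0.998 kb of the gene (43.9%) and that of the knockdown 1.66 kb (73.2%). The control peak (2L:15334507-15335504) lay wholly within the knockdown peak (2L:15333763-15335529). Their fold enrichments over background were 1.84 and 2.15 (the authors' deposited values, as are all folds and -log10 q values here), and their -log10 q values 1.37 and 2.63. H3K27ac covered 0.790 kb of esg in control and 0.684 kb in knockdown nuclei, as 1 peak in each list. All 4 lists therefore had a peak in the middle of esg, and they shared 575 bp there (2L:15334507-15335081). Such a stretch common to all 4 lists lay on 3.14% of protein-coding genes, and on neither wor nor sna. It was the longest of the 4 in the whole stretch, the others being 35 and 108 bp long between esg and wor and 80 bp long at 7.76 kb from sna. The stretch on esg was no longer common to all 4 lists when a -log10 q of 2, a fold of 2 or equal covered length was required.

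Within 10 kb of esg the marks parted. H3K27me3 covered 3.00 kb of that window (13.5%) in control and 9.71 kb (43.6%) in knockdown nuclei, whereas H3K27ac covered 3.82 kb (17.2%) and 1.13 kb (5.09%). Most of the H3K27me3 difference lay on the side of lower coordinates, with 0.681 and 5.11 kb, against 1.32 and 2.94 kb on the other side. The strongest knockdown peak near esg (2L:15329710-15331838, fold 2.31, -log10 q 3.07) ended 2.03 kb from the gene and met no peak of the other 3 lists. On the same flank, the strongest H3K27ac peak of the control (2L:15325313-15326045, fold 2.33, -log10 q 2.66) had no H3K27ac counterpart in the knockdown and lay wholly in a knockdown H3K27me3 peak. On the far side, the control H3K27ac peaks at 1.02 and 5.02 kb from esg also had no knockdown counterpart and lay wholly in knockdown H3K27me3 peaks. Every base of H3K27ac left in the esg window of the knockdown lay inside an H3K27me3 peak (100%), against 29.7% in the control.

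For wor, the gene that drives the sorting marker, the control had no H3K27me3 peak on the gene and the knockdown covered 1.44 kb of it (63.0%). The knockdown peak (2L:15424141-15428351) was 4.21 kb wide, the 331st widest of that list's 18692 peaks, and ran 2.77 kb beyond the gene. The widest H3K27ac peak of the stretch in either genotype lay at the same place. In the control it was 1 peak of 2.82 kb (2L:15424231-15427049, fold 1.95), and in the knockdown 2 peaks on the gene, of 570 and 2042 bp (folds 2.04 and 2.01). The cover of wor by H3K27ac was 1.35 kb in control and 0.996 kb in knockdown nuclei. The control peak lay wholly inside the knockdown H3K27me3 peak, and 74.4% of the knockdown H3K27ac on wor was also under H3K27me3.

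Around wor, H3K27ac was the one that ran against the list as a whole. It covered 4.33 kb of the window in control nuclei (19.4%) and 5.93 kb in knockdown nuclei (26.6%), a ratio of 1.37. The esg and sna windows had ratios of 0.297 and 0.448. A larger H3K27ac cover in the knockdown was found in the windows of 18.3% of all genes, wor among them, and a smaller cover in 81.4%, esg and sna among them. The excess near wor came from the side of higher coordinates, with 2.16 kb in control and 4.19 kb in knockdown nuclei, while the other side had 0.813 and 0.744 kb. There a peak of 426 bp in the control (2L:15430576-15431001) corresponded to 1 of 1805 bp in the knockdown (2L:15429618-15431422), with folds of 1.88 and 2.07. None of the H3K27ac peaks in the wor window reached a -log10 q of 2 in either genotype. Farther out on that side, 3 knockdown peaks had no H3K27ac counterpart in the control (2L:15434691-15434996, 2L:15435935-15436214 and 2L:15436853-15437976), and the last 2 start beyond the window.

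The H3K27ac cover of marker genes, summed over their spans, was compared as well. For the 8 neuroblast markers, wor included, it was 26.0 kb in control and 28.0 kb in knockdown nuclei, and 4 of them had more and 4 less in the knockdown. The sum turned on pros (14.4 and 17.1 kb), and the other 7 together had 11.6 and 11.0 kb. For neuron markers the sums were 31.1 and 20.3 kb, with 4 of 6 genes larger in the knockdown. Here futsch, a neuronal cytoskeleton gene, held the difference (16.7 and 5.74 kb), and the other 5 had 14.4 and 14.5 kb. Markers of the remaining types mostly had less, with 4 of 5 smaller for glia (8.68 and 5.75 kb), 5 of 6 for muscle and mesoderm (33.5 and 19.7 kb), 4 of 6 for epidermis and trachea (26.9 and 19.1 kb) and 5 of 6 for gut and blood (14.7 and 8.81 kb). Over all protein-coding genes the cover of the span was smaller in the knockdown for 54.1% and larger for 27.1%. The H3K27ac cover of the 6 arms had a ratio of 0.667. Markers of neuroblasts and of neurons thus went both ways, and the part of the cell mixture in the values at wor was not tested.

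H3K27me3 was more extensive around wor, at 1.89 kb of the window in control nuclei (8.48%) and 10.2 kb in knockdown nuclei (45.7%). The knockdown peak of highest -log10 q in the whole stretch (2L:15429554-15431004, fold 2.29, -log10 q 3.81) lay 3.97 kb from wor, and 95.6% of it was under the wide knockdown H3K27ac peak just described. Both marks were thus called over the same bases in the knockdown, where 47.3% of the H3K27me3 in the wor window lay in H3K27ac peaks, against 6.30% in the control. With the H3K27me3 lists at the same covered length, the wor window held less in the knockdown than in the control (1.45 and 1.89 kb), whereas the esg window (6.48 and 3.00 kb) and the sna window (3.82 and 2.38 kb) held more.

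For sna, the control had no H3K27me3 peak on the gene, and the knockdown peak (2L:15476985-15478387, fold 1.92, -log10 q 1.74) covered 1.28 kb (76.5%), the largest share of the 3 genes. H3K27ac covered 0.327 kb in control and 0.553 kb in knockdown nuclei. Cover of the gene by H3K27ac was thus larger in the knockdown at sna, as in 27.1% of all genes, and smaller at esg and wor, as in 54.1%. The knockdown had 2 H3K27ac peaks on sna. That at 2L:15477912-15478142 (fold 2.33) overlapped the control peak at the higher end of the gene, and that at 2L:15476981-15477302 (fold 2.16) had no control counterpart.

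**Figure D2:**
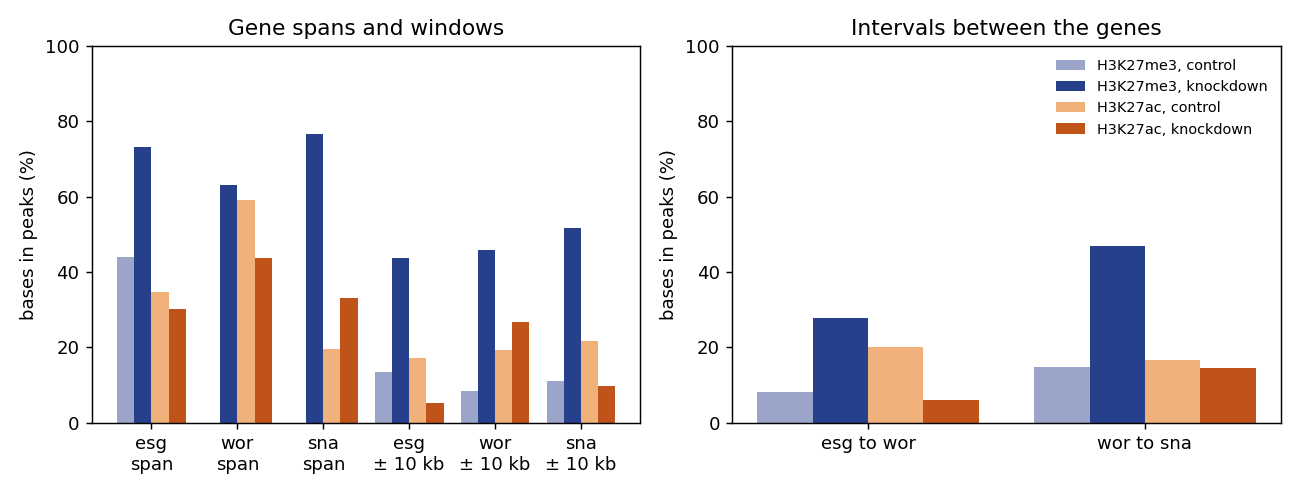
Share of bases in peaks (%, y axis) for each gene span, each window of 10 kb on either side, and both intervals, with 1 bar per library and no error since each group has 1 library. Knockdown H3K27me3 is the highest bar in all 8 regions, and knockdown H3K27ac is above the control at the sna span and the wor window.

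The sna window held more H3K27me3 in the knockdown than those of the other members. It had 2.38 kb in control nuclei (11.0%) and 11.2 kb in knockdown nuclei (51.6%), and 6.83 kb of the latter lay on the side of lower coordinates, toward wor. From that side 3 knockdown peaks, 2L:15459639-15466686, 2L:15467898-15471714 and 2L:15473025-15475944, led up to the gene, with widths of 7048, 3817 and 2920 bp. The first lies almost wholly beyond the window, its near end 9.91 kb from sna, and is the 80th widest of the knockdown list. The control had peaks of 490, 716 and 1073 bp inside these same 3, the first of them outside the window, so the knockdown peaks took in each control site and the bases around it. H3K27ac went the other way in the sna window, with 4.71 kb (21.7%) in control and 2.11 kb (9.74%) in knockdown nuclei. With a fold of at least 2, which favours the knockdown list, the sna window (none and 1.43 kb) and the wor span (none and 0.996 kb) had more H3K27ac in the knockdown, and so did the esg span (none and 0.684 kb) with lists of equal covered length. The control H3K27ac peak nearest the lower end of sna (2L:15474714-15475265, fold 1.97) lay wholly inside an H3K27me3 peak of both genotypes and had no knockdown H3K27ac counterpart. The neighbour Tim17b2, which encodes a subunit of the mitochondrial import machinery and lies in this window, had no H3K27me3 in control and 0.712 kb (87.1%) in knockdown nuclei, with H3K27ac over 0.375 and 0.300 kb.

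**Figure D3:**
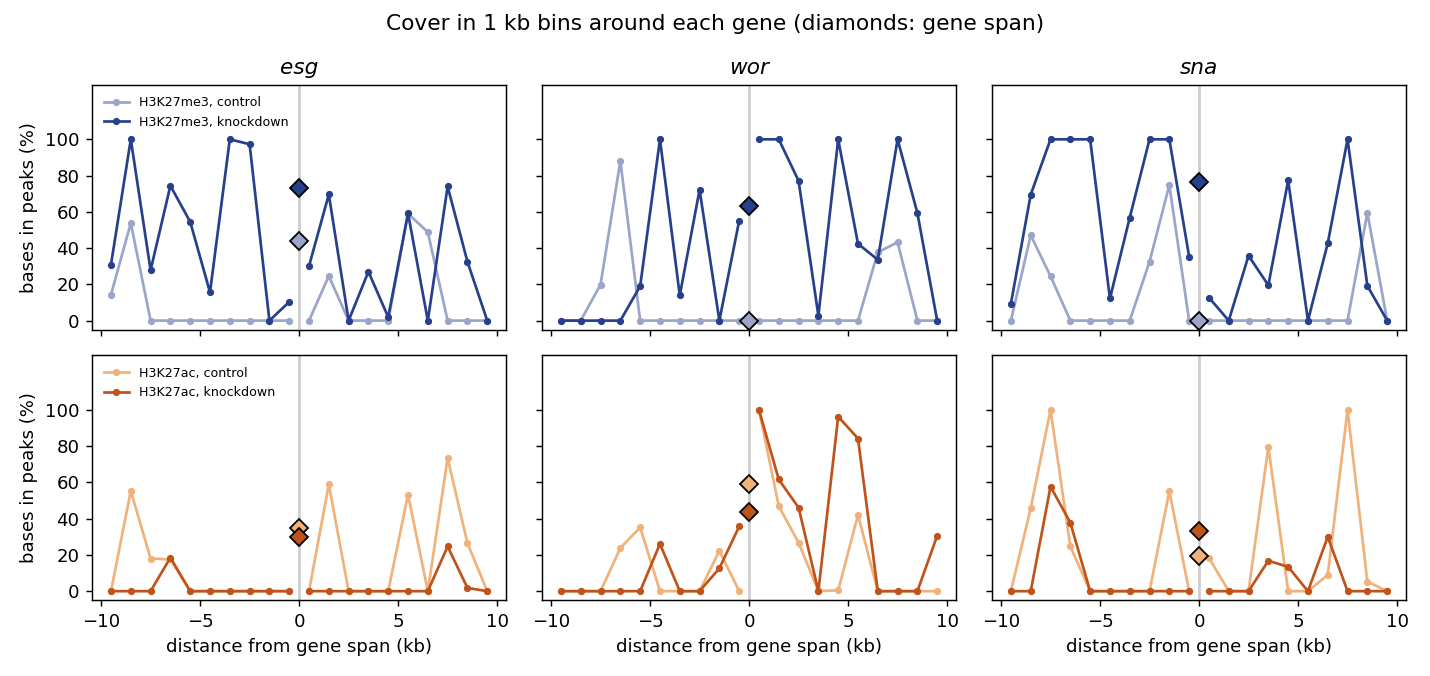
Share of each 1 kb bin in peaks (%, y axis) by distance from the gene span (kb, x axis), for H3K27me3 above and H3K27ac below, with diamonds for the gene span itself. Knockdown H3K27ac reaches 96.3% in the bin 4 to 5 kb above wor, where the control has 0.500%, and knockdown H3K27me3 fills 3 successive bins below sna that start at -8, -7 and -6 kb.

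The intervals between the genes were then compared, since they hold few genes. The 164 kb contain 7 protein-coding genes, the trio included, and 10 genes of long noncoding RNAs. The windows of esg, wor and sna hold 1, 3 and 2 protein-coding genes, where the median over all genes is 6.0. Between esg and wor (87.2 kb) H3K27me3 covered 6.99 kb in control nuclei (8.02%) and 24.3 kb in knockdown nuclei (27.8%). Between wor and sna (51.0 kb) it covered 7.50 kb (14.7%) and 23.9 kb (46.9%). The ratios, 3.47 and 3.19, were close to each other and below the 3.82 of the arm. With the H3K27me3 lists at the same covered length both turned, to 6.99 and 6.16 kb between esg and wor and to 7.50 and 5.27 kb between wor and sna.

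For H3K27ac the intervals did not resemble each other. Between esg and wor it covered 17.5 kb in control nuclei (20.1%) and 5.22 kb in knockdown nuclei (5.99%), although the lists had 20 and 19 peaks there. Between wor and sna the values were 8.50 and 7.37 kb (16.7 and 14.5%), and 4.19 kb of the latter lay within 10 kb of wor. The ratios were 0.298 and 0.868. The longest gap of the knockdown H3K27ac list, 18.4 kb (2L:15344157-15362606), lay on the esg side of the first interval, and the control list had 3 peaks of 588 to 1027 bp wholly within it (2L:15350336-15351360, 2L:15353610-15354636 and 2L:15356387-15356974). A gap of 17.6 kb in the knockdown list lay in the second interval (2L:15440943-15458559). The longest gap in control H3K27me3, 22.5 kb, ended near wor (2L:15393634-15416097), and knockdown H3K27me3 had no gap over 7.22 kb. These differences depend on the threshold: when a fold of 2 was required, H3K27ac covered 2.91 kb in control and 3.90 kb in knockdown nuclei between esg and wor, and 0.874 and 6.54 kb between wor and sna. On the arms 32.6% of H3K27ac peaks passed that bound in the control list and 80.3% in the knockdown list, so it favours the knockdown.

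Of the 10 noncoding RNA genes, none had H3K27me3 in the control and 6 had it in the knockdown, where 10.9 and 32.7% of all 1959 long noncoding RNA genes did. H3K27ac lay on 5 in control and 2 in knockdown nuclei, where the shares of all were 35.4 and 31.9%. With 10 neighbouring genes these counts are a description. lncRNA:CR44862, between wor and sna, had H3K27ac over 0.613 kb in control and none in knockdown nuclei, and H3K27me3 over 0.680 kb in the knockdown only. lncRNA:CR45373, between esg and wor, went the same way with 0.285 kb of H3K27ac in the control only and 0.317 kb of H3K27me3 in the knockdown only. lncRNA:CR45353 carried H3K27ac in both genotypes, over 0.584 kb in control and 0.391 kb in knockdown nuclei, and was wholly covered by H3K27me3 in the knockdown (0.584 kb). Not every gene differed: CG15258, between esg and wor, carried neither mark in any of the lists.

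The peaks of each list were matched to those of the other genotype, counting an overlap of at least 1 bp. Of the 18 control H3K27me3 peaks in the whole stretch, 14 overlapped a knockdown peak (77.8%, 95% exact Clopper-Pearson interval 52.4 to 93.6%), beside 59.7% on all arms. A control peak was met by 14 of the 44 knockdown peaks (31.8%, 18.6 to 47.6%), beside 13.0%. These intervals cover counting error only. H3K27me3 peaks covered 37.0% of the stretch in the knockdown and 10.2% in the control, where the median gene window had 15.6 and 0%. A denser list is met more often, and the shares were not corrected for this. For H3K27ac, 18 of 36 control peaks (50.0%, 32.9 to 67.1%) and 20 of 37 knockdown peaks (54.1%, 36.9 to 70.5%) met one of the other genotype, beside 58.3 and 66.3% on all arms. Neighbouring peaks of 1 library are not independent, so the shares are set beside those of the arms as a description.

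Overlap between the marks was then counted, in a stretch where 37.0% of bases lay in knockdown H3K27me3 peaks and 10.2% in control ones. The median windows of all protein-coding genes had 15.6 and 0%. An overlap share rises with the cover of the list that is met, and the shares below were not corrected for it. Whether the marks meet more often here than this cover gives was not tested. Of the 37 knockdown H3K27ac peaks, 33 overlapped a knockdown H3K27me3 peak (89.2%, 74.6 to 97.0%), against 52.8% on all arms. In the control, 12 of 36 H3K27ac peaks overlapped an H3K27me3 peak (33.3%, 18.6 to 51.0%), against 8.65%. Of the 36 control H3K27ac peaks, 31 overlapped a knockdown H3K27me3 peak by at least 1 bp (86.1%, 70.5 to 95.3%), against 56.1%, and 26 (72.2%) did so over at least 50% of their length. By bases, 73.2% of knockdown H3K27ac lay under H3K27me3 and 18.5% did in the control, against 43.8 and 5.58% on the arms. Read the other way, 18.8% of knockdown H3K27me3 bases lay in H3K27ac peaks and 34.7% in the control, against 33.3 and 26.5%. Knockdown H3K27me3 peaks thus met most of the narrow H3K27ac peaks, and most of their own length lay outside them.

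The windows of the trio were set beside those of all protein-coding genes. For knockdown H3K27me3 the median window was covered over 15.6% and the 95th percentile was 40.5%, and esg (43.6%), wor (45.7%) and sna (51.6%) all lay above it. In the control the median was 0 and the 95th percentile 11.6%, with esg (13.5%) above and sna (11.0%) and wor (8.48%) below it. The trio thus stood in the upper part of the H3K27me3 range in both genotypes. A cover at least 2 times as large in the knockdown was found in the windows of all 3 members, and of 89.2% of all genes, which is no feature of the trio. For H3K27ac the control windows (17.2, 19.4 and 21.7% for esg, wor and sna) lay between the lower quartile of 13.1% and the median of 22.2%. In the knockdown esg (5.09%) lay below the lower quartile of 8.38%, sna (9.74%) between it and the median of 15.3%, and wor (26.6%) above the upper quartile of 23.4%.

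**Figure D4:**
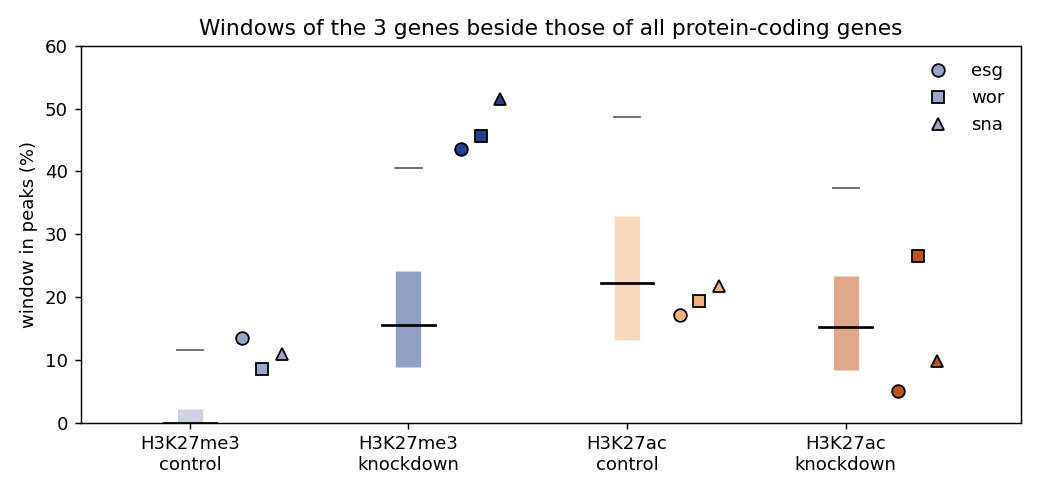
Share of the gene window in peaks (%, y axis) for each library. Bars run from the lower to the upper quartile of 13922 protein-coding genes, with a black line at the median and a grey tick at the 95th percentile. All 3 members exceed the 95th percentile of 40.5% for knockdown H3K27me3, and for knockdown H3K27ac wor (26.6%) stands apart from esg (5.09%) and sna (9.74%).

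Genes of like pattern were sought among 7694 protein-coding genes with an official symbol more than 50 kb from the trio, by the Euclidean distance between percent cover of the windows in the 4 libraries. The nearest to sna was Psc, a Polycomb group gene, at 4.07 percentage points, followed by sens, which encodes a zinc finger factor of sensory organ precursors (5.78), and Gbeta76C, a photoreceptor G protein subunit gene (7.39). The windows of Psc were covered over 8.30 and 49.7% by H3K27me3 and 21.7 and 12.1% by H3K27ac, control first. For esg the nearest were the mechanosensory channel gene nompC (6.36), the eye and thorax gene eyg (7.36) and again Gbeta76C (7.39). For wor they were Fatp2 (5.70), unk (6.12) and TMEM216 (6.56). The lists of sna and esg thus share a gene and neither shares one with wor. These distances rest on 4 libraries and are descriptions only.

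The other genes of the family and of its pathway were described by the share of each gene span in peaks. H3K27me3 cover was larger in the knockdown for all 3 members of the trio and for 2 of the 3 other Snail superfamily genes, 6 of 7 co-repressor genes, 12 of 16 mesoderm regulators and targets of sna, and 14 of 15 neuroblast genes that act with or downstream of the family, against 59.7% of all genes. A single peak can meet this rule, so long spans meet it more readily. The listed spans ran from 0.865 kb (Mes3) to 79.1 kb (pros) and were not matched to all genes by length. In the superfamily, scrt, a neural gene, had no H3K27me3 in either genotype and H3K27ac over 0.944 kb in control and 2.57 kb in knockdown nuclei. Kah had H3K27me3 over 0.718 and 1.17 kb and H3K27ac over 1.84 and 0.602 kb, and CG12605 had H3K27me3 over 1.69 kb in the knockdown only. None of them passed the 50% bound, which 13.9% of all genes passed in the knockdown only. Their spans are longer than those of the trio (10.1 kb for scrt, 6.45 kb for Kah and 10.5 kb for CG12605), which lowers a share of the span. In kb, CG12605 had more H3K27me3 in the knockdown than any of the trio (at most 1.66 kb), and Kah and scrt had less. The median share in the knockdown was 16.1% for these 3 genes, beside 10.9% over all genes.

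Of the 7 co-repressor genes, gro (4.15 kb, 50.8%) and HDAC3 (1.25 kb, 69.6%) passed the 50% bound in the knockdown only, as 13.9% of all genes did. CtBP, the partner of Snail, had 2.21 kb (15.1%) in the knockdown and none in the control. H3K27ac was called at all 7 in both genotypes, as at 69.7% of all genes. It covered less of 6 of them in the knockdown, as of 54.1% of all genes. The exception was HDAC1, with 0.435 and 0.896 kb. The median H3K27ac share was 47.6% in control and 32.2% in knockdown nuclei, above the 22.3 and 14.2% of all genes.

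Mesoderm regulators and targets of sna were looked at next. The midline gene sim (12.8 and 13.1 kb), the column gene vnd (8.28 and 13.1 kb) and ind (1.13 and 1.13 kb) passed the 50% bound in both genotypes. These are 3 of 16 genes, beside 1.59% of all genes. The protease gene rho (none and 2.60 kb) and wntD (none and 0.629 kb) passed the bound in the knockdown only, as 13.9% of genes did. Mes3, which the gene table lists under the symbol Ilp4, passed it in the control only (0.491 kb and none), as 0.445% of genes did. H3K27ac was called in the control only at ind, with 0.767 kb on the gene, and near Mes3, as at 10.4% of all genes. The longest cover in the knockdown was at the mesoderm regulator twi (1.75 and 17.2 kb), whose span in the gene table is 63.0 kb, and l(1)sc had no peak of any list on its span. This group had a median H3K27me3 share of 1.23% in control and 19.2% in knockdown nuclei, beside 0 and 10.9% over all genes.

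Of the 15 neuroblast genes, H3K27ac cover was larger in the knockdown for 10 and smaller for 5, where 27.1% of all genes had a larger and 54.1% a smaller cover. The 10 include near ties at D (0.842 and 0.847 kb) and at elav (4.45 and 4.56 kb), which is also a neuron marker here. The 8 neuroblast markers above split into 4 larger and 4 smaller. The median share was 18.2% in control and 25.9% in knockdown nuclei, while that of all genes was 22.3 and 14.2%. The proneural gene ase had H3K27ac in the knockdown only (0.472 kb), as 7.17% of genes did. The cargo adaptor gene mira had 1.15 and 2.40 kb, the cell cycle phosphatase gene stg 1.24 and 1.74 kb, and pros, whose product ends self-renewal in the daughter cell, 14.4 and 17.1 kb. The polarity gene insc, a target of the family, had less, at 5.25 and 3.82 kb, as did dpn and SoxN. For H3K27me3, SoxN (none and 3.21 kb), D (0.246 and 1.89 kb) and nerfin-1 (none and 1.62 kb) passed the 50% bound in the knockdown only. These are 3 of the 15, beside 13.9% of all genes. The longest H3K27me3 cover was at pros (2.01 and 31.4 kb). The gene wor itself thus had less H3K27ac in the knockdown, as insc and SoxN did, and its window had more.

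**Figure D5:**
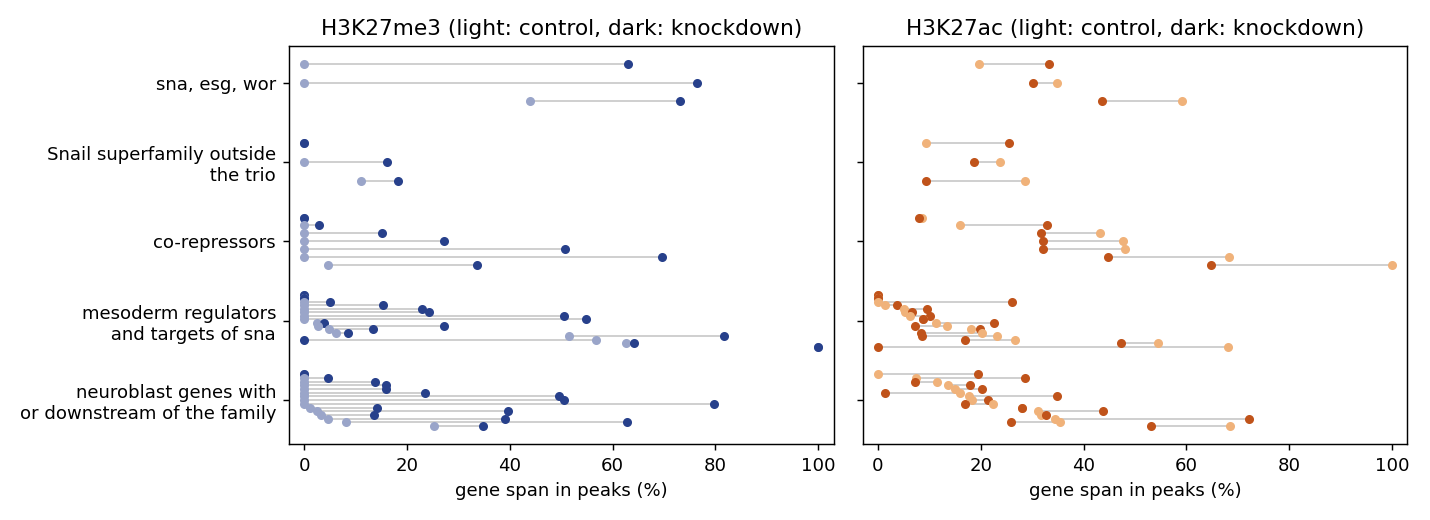
Share of each gene span in peaks (%, x axis), with 1 line per gene joining control (light) to knockdown (dark), for the trio and 4 gene groups. The trio reaches 63.0 to 76.5% for knockdown H3K27me3, above all 3 other Snail superfamily genes, whose spans are longer (6.45 to 10.5 kb). Most neuroblast genes lie farther right in the knockdown for H3K27ac.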

How the data were processed

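H3K27me3 and H3K27ac were profiled in 4 libraries, 1 per mark and genotype. The deposited files are broad peak lists made per library with MACS2, per the file headers (the peak names). The submitters' processing notes also name FastQC, Bowtie2, SICER and build dm6, without roles. Each peak has the authors' deposited fold enrichment (a ratio over background), -log10 p and -log10 q, and a deposited score, which was 10 times its -log10 q without decimals for 74388 of 74390 peaks. The lowest -log10 q was 1.01 in each list. Lists hold no counts, so depth is unknown, and a base outside peaks is only below the authors' threshold. Chromatin was cut with micrococcal nuclease, per the labels, which also give 3 min of sonication for every library. The antibody amount was 2 ug for H3K27me3 and 1 ug for H3K27ac.

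Peaks on the 6 arms were merged and intersected with gene spans of a RefSeq table (release 6, no strand) in Python 3.11.15, with intervals from SciPy 1.17.1. The cover routine was tested on simulated intervals. All 41 pathway genes matched. Named genes were the trio, genes of its windows and intervals, the 3 nearest by pattern and up to 6 per list by size of cover or difference, and further examples were chosen after their values were seen. Members and lists were chosen with earlier results of these data known. Alternatives were stricter peaks, equal list lengths, other flanks and other overlap bounds. Sequences were not used here.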

Additional observations from a re-analysis of the deposited data

How the results depend on the processing

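No paired analysis was possible because each group has 1 library, and for the same reason no library could be left out. H3K27me3 in the 3 windows was 23.8 kb larger in the knockdown. That difference was 20.5 kb when a -log10 q of 2 was required, 14.6 kb with a fold of at least 2, 4.47 kb at equal covered length of the lists, 16.3 and 39.7 kb with flanks of 5 and 20 kb, and 18.4 kb without bases inside H3K27ac. For the intervals the difference of 33.7 kb was 26.8 kb with -log10 q of at least 2, 22.3 kb with a fold of at least 2, and 29.8 kb without bases inside H3K27ac, and it turned to -3.07 kb at the same covered length. That setting trims the knockdown list alone for H3K27me3 and the control list alone for H3K27ac. By region it turned the wor window to -0.438 kb, esg to wor to -0.835 kb and wor to sna to -2.23 kb.

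The H3K27ac difference was less stable. In the windows it was -3.68 kb, and -0.733 kb with -log10 q of at least 2, 5.58 kb with a fold of at least 2, 0.119 kb at the same covered length, and -0.236 and -4.98 kb with flanks of 5 and 20 kb. In the intervals it was -13.4 kb, and 0.563, 6.65 and 1.18 kb in the first 3 of these settings. By region, a fold of at least 2 turned the wor span to 0.996 kb, the sna window to 1.43 kb, esg to wor to 0.988 kb and wor to sna to 5.66 kb. With -log10 q of at least 2 the intervals were 0.431 and 0.132 kb. The same covered length turned the esg span to 0.684 kb and wor to sna to 2.23 kb. The wor window was 1.60 kb larger in the knockdown, 5.21 kb with a fold of at least 2 and 2.25 kb at the same covered length, and no H3K27ac peak there had a -log10 q of at least 2. The cause of these changes was not tested.

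Requiring at least 50% of a peak for overlap left 6 of 8 shared control H3K27me3 peaks in the windows, 1 of 9 of the knockdown, and 5 of 10 and 7 of 11 H3K27ac peaks. Genes called for H3K27me3 in the knockdown only were 1930, and 4223 and 841 at bounds of 25 and 75% of the span.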

Other observations

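Beyond the 10 kb boundary above sna, the knockdown H3K27me3 list had a narrow peak of 235 bp at 2L:15496724-15496958, 18.5 kb from sna, with a fold of 2.57 and a -log10 q of 4.06. These exceed the fold (at most 2.32) and the -log10 q (at most 3.81) of the 44 knockdown H3K27me3 peaks counted with the trio, and no peak of the other 3 lists overlapped it. On the outer side of esg, beyond the same boundary, knockdown peaks of both marks overlapped at 2L:15318151-15320152 for H3K27me3 (fold 2.19) and 2L:15319204-15320149 for H3K27ac (fold 2.33), where the control had an H3K27ac peak of 237 bp and no H3K27me3 peak.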
